A study of Danio rerio with 21 samples.

Results

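RNA sequencing of non-endothelial cells compared zebrafish embryos injected with a runx1 morpholino (MO DN) with non-injected embryos (Wt DN). The members of the comparison were all genes listed in its deposited table, 176 of the 3064 distinct genes listed across the 3 tables of the series. Both groups were embryos of 28 to 30 hours post fertilisation (hpf) with the transgenes TgBAC(runx1P2:Citrine) and Tg(kdrl:mCherry), the first reporting the P2 promoter of runx1 and the second marking endothelium, and the cells were sorted as mCherry-Citrine-, that is, double-negative (DN). Each group had 3 libraries, each made from 2.2 ng of total RNA of at least 3000 sorted cells. The study's methods describe independent experiments in which every clutch was divided between injection and no treatment and several clutches were pooled. The p-values therefore measure the spread between such pools. The series holds 21 libraries in 7 groups, and the only other injected group was made of mCherry+Citrine+ cells with high Citrine (MO DP-R1hi, with Wt DP-R1hi as its control), which the study treats as haemogenic endothelium (HE).

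A morpholino is a synthetic antisense oligomer that binds RNA and, over a splice junction, blocks splicing of the transcript. Runx1 is a transcription factor that endothelial cells need to turn into blood stem and progenitor cells. The study used DN cells to correct for off-target effects of the morpholino. It also describes, at an earlier stage, neurons that express runx1 without Citrine, whereas Citrine was found in runx1-positive neurons of the spinal cord. It further cites fewer primitive neutrophils in runx1 mutants. DN cells can therefore not be taken as free of Runx1 function. Cells under stress or with damaged DNA switch on genes that arrest the cell cycle, repair DNA or start apoptosis, and induction of such genes is a known side effect of some morpholinos. The control embryos were not injected and no control morpholino was part of the comparison, so loss of Runx1, other effects of this morpholino and the injection itself cannot be told apart.

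The oligomer is shown because the whole comparison rests on it. It is written 5′ to 3′ in lower case, and under it stands its reverse complement, the strand it binds at the junction of exon 1 and intron 1. Capitals mark the exon part of that strand, and the first intron base is base 15 of 25.
runx1P2 MO: agcgctcttaccgtatttggcgtcc
runx1 target strand: GGACGCCAAATACGgtaagagcgct

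Values are CPM, read counts scaled to 1 M reads of the effective library size. These sizes came to 14.9 to 22.6 M reads in MO DN and 12.7 to 20.6 M in Wt DN if the smallest step of the values is 1 read. That step was worth 0.0443 to 0.0785 CPM, and the listed genes held 1.598% to 1.96% of the reads in MO DN and 1.06% to 1.17% in Wt DN. Across the listed genes replicates correlated with r of 0.959 to 0.983 in MO DN and 0.953 to 0.970 in Wt DN (genes are not independent replicates). Differences are MO minus Wt on log2(CPM + 1), which understates the change of low genes. A gene was called at an adjusted p under 0.05 in limma, with Benjamini-Hochberg adjustment over 3064 tests. The table lists only genes that the authors had called on these same libraries, so a call here is no independent evidence, and all 176 had an unadjusted p under 0.05. Values of runx1 itself were not analysed here.

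In the DN cells of morphants all 9 listed genes of cell cycle arrest and apoptosis described here rose and 8 of the 14 listed genes of primitive red blood cells fell. Of 32 listed genes for building ribosomes 25 rose on the deposited scale. When the libraries were rescaled so that the typical listed gene did not differ, 6 of the 9 arrest and apoptosis calls, all 8 erythroid calls and 0 of the 25 ribosome calls of limma held (3 of the 25 with an unadjusted p under 0.05). This rescaling lowers MO against Wt by 0.91 on the log2 scale. Falls therefore grow by construction and rises near that size shrink towards no difference. The rescaling is thus no test of the erythroid falls, nor of the ribosome rises, whose median was near that size. Of the 176 genes, 119 had a positive and 57 a negative difference, and the median was 0.997. The call was met by 105 genes (59.7% of those tested), 83 of them up (47.2%) and 22 down (12.5%). The values of the 2 groups did not overlap for 174 genes (98.9%), which had been listed for a difference on these same libraries. A lack of overlap therefore sets no listed gene apart. A rise of at least 2 on the log2 scale was seen in 28 genes, and a fall of that size in 2. Fewer genes were called whichever library was left out. Without Wt DN 1 the count was 20, with MO DN 1 left out it was 51, and across all 6 omissions it lay between 20 and 70. In these fits of limma 167 to 174 of the 176 genes still had an unadjusted p under 0.05, 174 of them without Wt DN 1. The 20 genes called in every one of these fits were all higher in MO DN, and 6 of them were among these arrest and apoptosis genes.

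**Figure D1:**
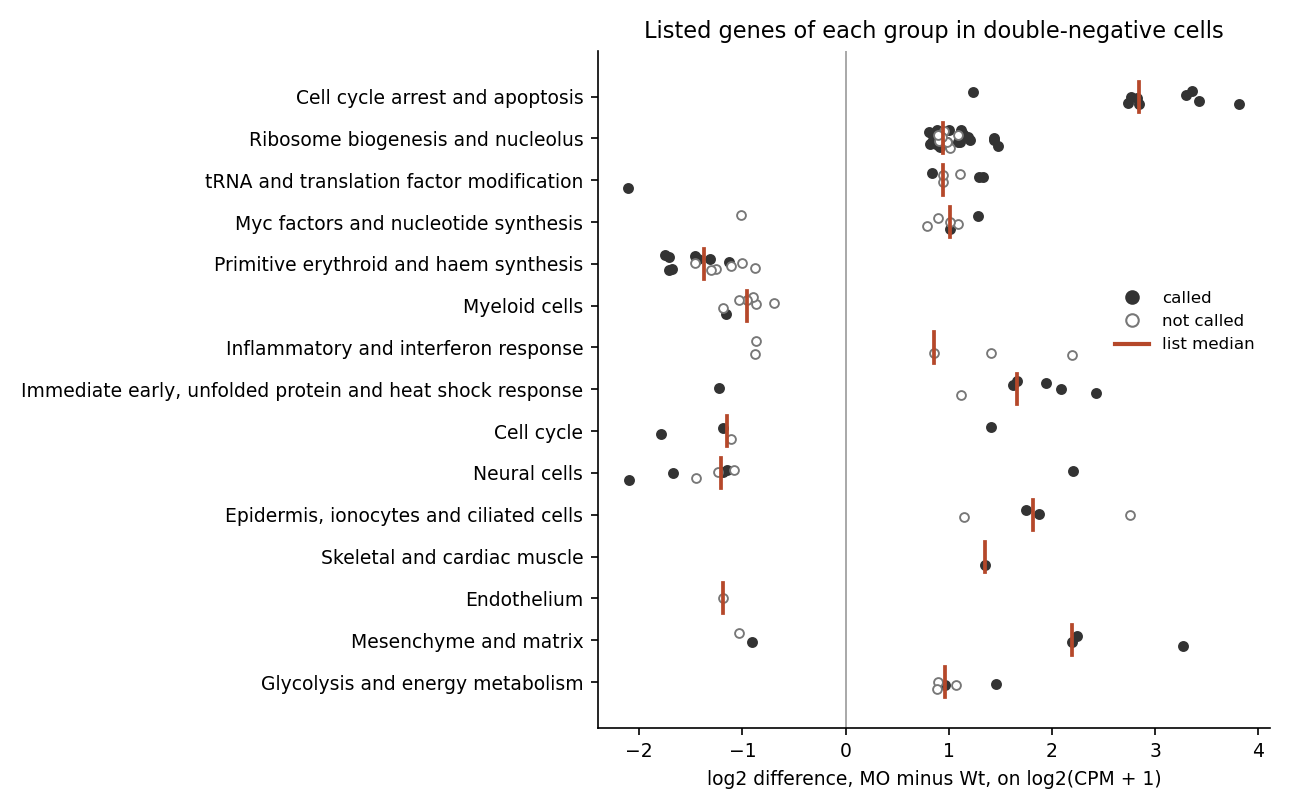
Log2 difference (MO minus Wt, on log2(CPM + 1), x axis) of the listed genes in each of the 15 gene lists (rows), in DN cells with 3 libraries a group. Filled points were called, open points were not, and the vertical stroke is the list's median, which was 2.84 for the arrest and apoptosis list, 0.95 for ribosome biogenesis and -1.37 for the erythroid list.

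Genes of cell cycle arrest and apoptosis gave the largest rises as a group. Of 34 genes on the list 9 were in the table, and all 9 rose in MO DN, with a median of 2.84 against 0.997 over all listed genes. Among all listed genes 47.2% were called up. Their summed level was 2988 to 4289 CPM in MO DN, against 347 to 379 CPM in Wt DN. The 3 MO sums all lay far above the 3 Wt sums. Most of each sum came from 1 gene, ccng1, with 2519.6 to 3651 CPM in MO DN and 276 to 319 CPM in Wt DN.

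Genes of feedback and cell cycle arrest rose. The ubiquitin ligase mdm2, a feedback brake on the damage response, had 227, 149 and 170.0 CPM in MO DN, against 14.1, 21.7 and 12.9 CPM in Wt DN, a difference of 3.42 ± 0.25 (SE, adjusted p = 0.000103). Cyclin G1 (ccng1), which acts back on Mdm2, had 3651, 3010.3 and 2519.6 CPM in MO DN, against 319, 291 and 276 CPM in Wt DN, a difference of 3.36 ± 0.20 (SE, adjusted p = 2.44e-05). For both genes the 3 MO libraries stood far above the 3 Wt libraries (groups did not overlap in 98.9% of all listed genes). The cyclin-dependent kinase inhibitor cdkn1a (p21) had 28.2, 48.1 and 47.9 CPM in MO DN, against 4.85, 4.37 and 5.03 CPM in Wt DN, a difference of 2.84 ± 0.29 (SE, adjusted p = 0.000661). The Akt inhibitor phlda3 and the sestrin sesn3, which restrains TORC1, rose by 3.30 and 2.82, and the damage response gene gadd45aa rose by 2.73.

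The cell death genes rose by more varied amounts. Caspase 8 (casp8), the initiator protease of death receptor signalling, had 58.4, 31.2 and 28.7 CPM in MO DN, against 1.31, 1.02 and 3.38 CPM in Wt DN. Every Wt library was under 4 CPM, and the difference was 3.81 ± 0.39 (SE, adjusted p = 0.000661), 20.7-fold on the mean CPM. The BH3-only gene bbc3 (Puma) had 21.1, 21.1 and 17.1 CPM in MO DN, against 2.46, 0.583 and 4.16 CPM in Wt DN, a difference of 2.76 ± 0.41 (SE, adjusted p = 0.00645). Its effector baxa (Bax) had 54.8, 36.0 and 35.1 CPM in MO DN, against 18.1, 14.5 and 18.5 CPM in Wt DN, the smallest rise of the list with 1.23 ± 0.26 (SE, adjusted p = 0.0311). The call of bbc3 was lost without Wt DN 1 (adjusted p = 0.0669), that of gadd45aa without Wt DN 1 or Wt DN 2 (adjusted p up to 0.111) and that of baxa without MO DN 1, MO DN 2, Wt DN 1, Wt DN 2 or Wt DN 3 (adjusted p up to 0.143). The other 6 genes kept their calls in each fit without 1 library. The same 3 calls were lost after the rescaling, where bbc3 had 2.02 (adjusted p = 0.109 in limma), gadd45aa 1.99 (adjusted p = 0.137) and baxa 0.36 (adjusted p = 1).

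**Figure D2:**
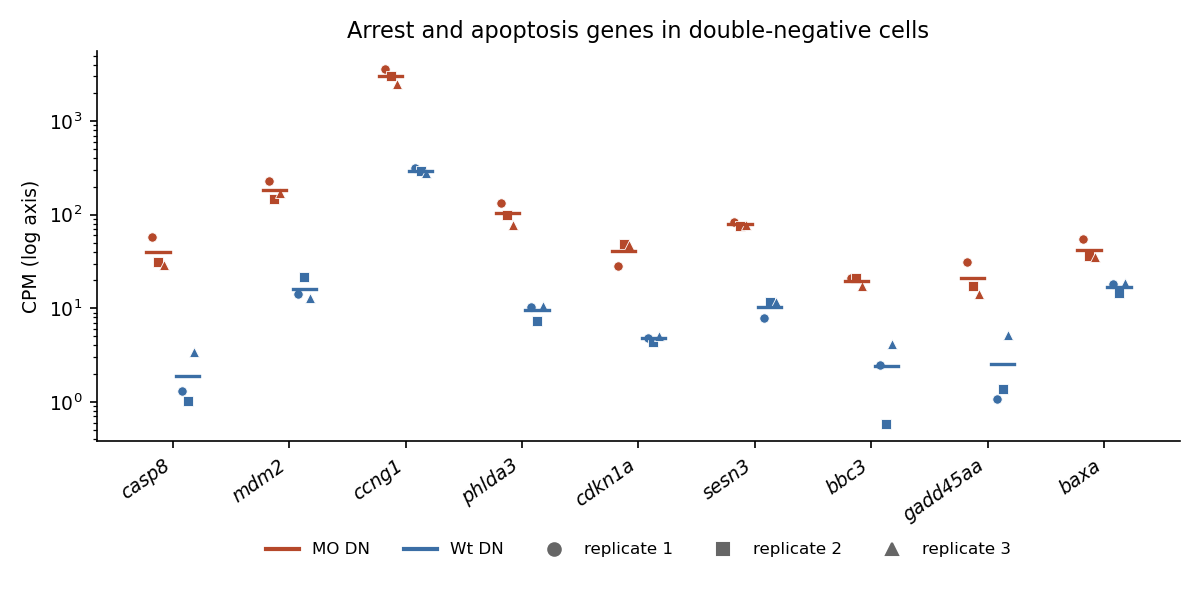
CPM (log axis) of the 9 listed arrest and apoptosis genes in each library, MO DN left of Wt DN, with a line at the mean of 3 libraries and a symbol for each replicate. In every gene all MO libraries lie above all Wt libraries, from casp8 with 28.7 to 58.4 CPM in MO DN against 1.02 to 3.38 CPM in Wt DN to baxa with 35.1 to 54.8 CPM in MO DN against 14.5 to 18.5 CPM in Wt DN. Groups did not overlap in 98.9% of all listed genes.

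Genes for making ribosomes were called up in 25 of 32 cases on the deposited scale, by a smaller step, and in none after the rescaling to the listed genes. Ribosomes are assembled in the nucleolus, where the ribosomal RNA precursor is cut, modified and packed with proteins. Of 112 genes on this list 32 were in the table and all 32 were positive. The 25 called were 78.1% of the 32 (against 47.2% of all listed genes called up), with a median of 0.95 that was close to the 0.997 of the table. The sum of the 32 was 5697 to 7024 CPM in MO DN, against 3054 to 3314 CPM in Wt DN. When the libraries were rescaled so that the typical listed gene did not differ, which took off 0.91 on the log2 scale, the median was 0.054, 9 of the 32 turned negative and none kept its call (3 of the 25 called genes had an unadjusted p under 0.05 in limma). The rescaling was set by genes listed for changing, these 32 among them. Rises near 0.91 were bound to shrink, so the lost calls are no test of the ribosome rises.

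The members span the whole assembly line. The small subunit processome gene wdr43 (Utp5) had 446, 391 and 458 CPM in MO DN, against 136, 153 and 174 CPM in Wt DN, the largest difference of the list with 1.48 ± 0.18 (SE, adjusted p = 0.00176). Another processome gene, dcaf13, the homologue of yeast Sof1, had 104, 77.9 and 82.5 CPM in MO DN, against 37.1, 31.9 and 26.4 CPM in Wt DN, a difference of 1.44 ± 0.21 (SE, adjusted p = 0.00624). These were the only 2 genes of the list that kept their calls in each fit without 1 library. The nucleolar gene dnttip2 had 204, 159 and 189 CPM in MO DN, against 51.7, 79.5 and 73.2 CPM in Wt DN, a difference of 1.44 ± 0.21 (SE, adjusted p = 0.00616), and was lost without Wt DN 1 (adjusted p = 0.0595). The adaptor nmd3, which exports the large subunit from the nucleus, had 123, 98.6 and 97.6 CPM in MO DN, against 49.5, 56.5 and 33.5 CPM in Wt DN, a difference of 1.201 ± 0.23 (SE, adjusted p = 0.0217), and was lost without MO DN 1, Wt DN 1 or Wt DN 3 (adjusted p up to 0.13).

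The abundant nucleolar proteins moved by a like amount. The box C/D snoRNA protein nop58 had 738, 569 and 667 CPM in MO DN, against 376, 359 and 316 CPM in Wt DN, nucleophosmin (npm1a) had 1612, 1135 and 1158 CPM in MO DN, against 659.7, 618 and 764 CPM in Wt DN, and the pseudouridine synthase dkc1 had 771, 548 and 685 CPM in MO DN, against 349, 347 and 356 CPM in Wt DN. The MO libraries were above the Wt libraries in all 3 genes, with differences of 0.90, 0.92 and 0.91 (groups did not overlap in 98.9% of all listed genes). After the rescaling nop58 was slightly negative, while npm1a and dkc1 stayed positive by 0.012 and 0.0052. The large subunit factors bop1 and wdr12, which act in 1 complex, rose by 1.11 and 0.84, and nucleostemin (gnl3) by 0.84; wdr12 and gnl3 were negative after the rescaling. The 7 genes that missed the call (noc3l, twistnb, riok2, nifk, nol6, nle1 and shq1) had differences of 0.90 to 1.09. Without Wt DN 1 only 2 of the 25 calls held. The list had 8 calls without MO DN 1, 9 without MO DN 2, 9 without MO DN 3, 18 without Wt DN 2 and 4 without Wt DN 3.

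**Figure D3:**
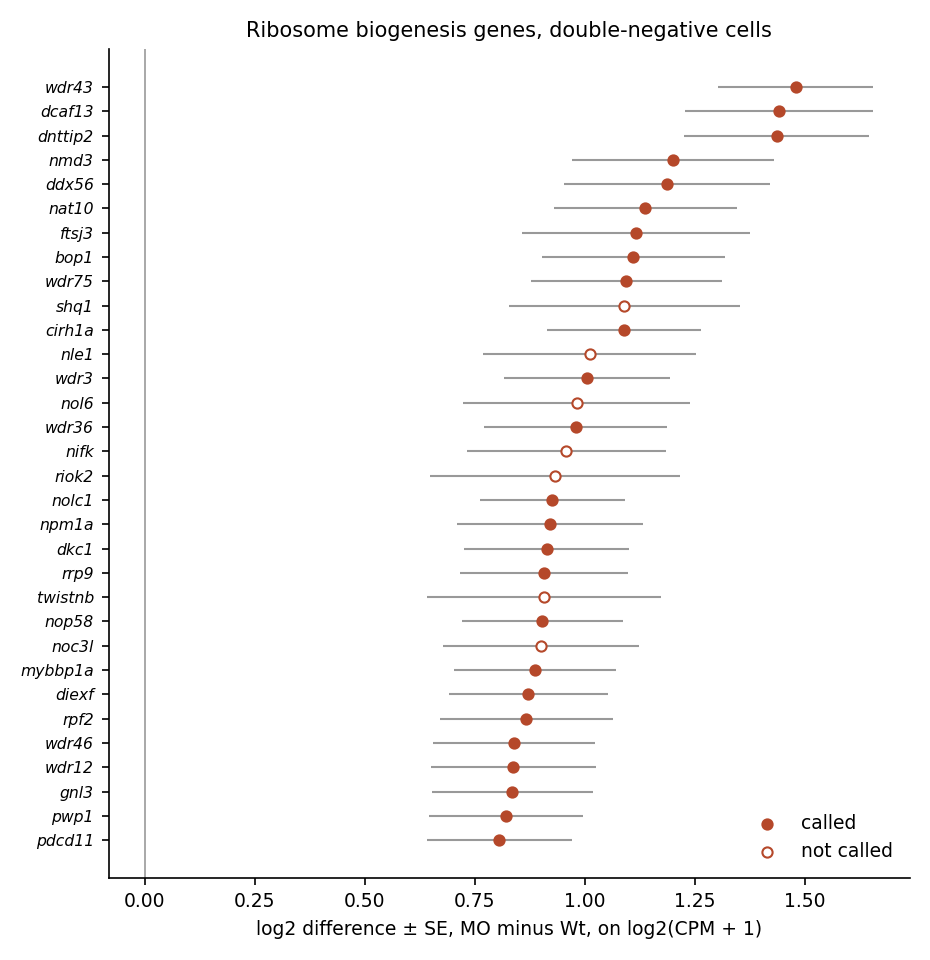
Log2 difference (MO minus Wt, on log2(CPM + 1), x axis) with its standard error for the 32 listed ribosome biogenesis genes in DN cells, 3 libraries a group. Filled points were called, and all 32 lie between 0.81 (pdcd11) and 1.48 (wdr43), 9 of which turn negative after the rescaling.

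Myc transcription factors, which drive ribosome production, and the enzymes of nucleotide synthesis were tested beside this list. Of 28 such genes 7 were listed, with a median of 1.01, and 2 rose, both of them Myc genes. These were 28.6% of the 7, below the 47.2% called up among all listed genes. The gene myca had 162, 126 and 122 CPM in MO DN, against 54.7, 64.9 and 47.0 CPM in Wt DN, a difference of 1.28 ± 0.20 (SE, adjusted p = 0.00872), and mycb had 112, 79.4 and 86.9 CPM in MO DN, against 39.8, 41.5 and 55.1 CPM in Wt DN, a difference of 1.01 ± 0.22 (SE, adjusted p = 0.032). In both genes the groups did not overlap, as in 98.9% of all listed genes. The call of myca was lost without Wt DN 1 (adjusted p = 0.0984) and that of mycb without MO DN 1, MO DN 2, MO DN 3, Wt DN 1 or Wt DN 2 (adjusted p up to 0.205). The 5 others missed the call. The purine enzyme ppat, the CTP synthase ctps1b, the pentose phosphate enzyme rpia and the adenosine kinase adkb had differences of 0.79 to 1.09, and itpa, which clears damaged purine nucleotides, had -1.01. After the rescaling both Myc calls were lost, with 0.38 for myca and 0.12 for mycb (adjusted p = 1 each in limma), and adkb was negative.

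A list named for tRNA and translation factor modification, which also held prmt3, ssb and rpl22l1, had 7 of its 24 genes in the table. These 7 had a median of 0.95, with 3 up and 1 down. The share called in either direction was 57.1%, near the 59.7% of all listed genes. The tRNA thiolation enzyme ctu1 had 21.1, 14.3 and 20.3 CPM in MO DN, against 5.85, 7.24 and 7.07 CPM in Wt DN, a difference of 1.33 ± 0.28 (SE, adjusted p = 0.0315), which was lost whichever of the 6 libraries was left out (adjusted p up to 0.143). The ribosomal protein methyltransferase prmt3 rose by 1.29 and the La protein gene ssb by 0.83. After the rescaling all 3 rises were lost, with 0.50 for ctu1, 0.40 for prmt3 and -0.072 for ssb (adjusted p = 1 each in limma). The call of prmt3 was lost without Wt DN 1 (adjusted p = 0.105) and that of ssb without MO DN 1, MO DN 2, MO DN 3, Wt DN 1 or Wt DN 3 (adjusted p up to 0.131). Against these stood rpl22l1, a paralogue of ribosomal protein gene rpl22, which fell furthest of all listed genes. It had 106, 72.3 and 44.8 CPM in MO DN, against 412, 188 and 363 CPM in Wt DN, a difference of -2.10 ± 0.35 (SE, adjusted p = 0.0121), which was lost without Wt DN 1 (adjusted p = 0.13). The highest MO library was below the lowest Wt library, although the Wt libraries themselves spanned more than a doubling (groups did not overlap in 98.9% of all listed genes).

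Of 32 genes of the immediate early, unfolded protein and heat shock responses 7 were in the table, with a median of 1.66, and 5 rose and 1 fell. Calls in either direction made up 85.7% of the 7, against 59.7% of all listed genes. The AP-1 gene fosl1a had 79.7, 31.3 and 105 CPM in MO DN, against 10.8, 9.38 and 13.5 CPM in Wt DN, a difference of 2.42 ± 0.40 (SE, adjusted p = 0.0114), and the transcriptional coactivator cited2 had 25.1, 13.9 and 18.9 CPM in MO DN, against 4.15, 1.99 and 5.58 CPM in Wt DN, a difference of 2.08 ± 0.36 (SE, adjusted p = 0.0147). The MO libraries of fosl1a differed among themselves by more than 3 times, yet all lay above Wt (groups did not overlap in 98.9% of all listed genes). The stress response factors atf5a and foxo3b rose by 1.94 and 1.63, and the chaperone hsp90aa1.1 had 531, 220.2 and 384 CPM in MO DN, against 85.9, 97.0 and 167 CPM in Wt DN, a rise of 1.66. The glutathione transferase gene gstr fell by 1.23 on the log2 scale. Only foxo3b kept its call in each fit without 1 library. The call of fosl1a was lost without Wt DN 1 (adjusted p = 0.113), that of atf5a without Wt DN 1 (adjusted p = 0.105), that of cited2 without MO DN 1 or Wt DN 1 (adjusted p up to 0.104), that of hsp90aa1.1 without MO DN 1, Wt DN 1 or Wt DN 2 (adjusted p up to 0.226) and that of gstr without MO DN 1, MO DN 3, Wt DN 1, Wt DN 2 or Wt DN 3 (adjusted p up to 0.265). After the rescaling all 5 rises were lost, with 1.56 for fosl1a (adjusted p = 0.18 in limma), 1.29 for cited2 (adjusted p = 0.342), 1.21 for atf5a (adjusted p = 0.269), 0.73 for foxo3b (adjusted p = 0.0974) and 0.76 for hsp90aa1.1 (adjusted p = 1). The fall of gstr, which the rescaling enlarges by construction, stayed called.

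The largest rise of the table lay outside these lists. The ubiquitin ligase gene lnx1, whose product targets the Notch regulator Numb, had 42.3, 100.2 and 135 CPM in MO DN, against 2.92, 5.06 and 1.81 CPM in Wt DN, a difference of 4.38 ± 0.44 (SE, adjusted p = 0.000661) and 28.4-fold on the mean CPM. The MO libraries spread from 42.3 to 135 CPM but the Wt libraries stayed under 6 CPM. In all 59 listed genes were on no list, of which 28 rose and 4 fell, against 47.2% and 12.5% of all listed genes. Among them upb1, the last enzyme of pyrimidine breakdown, had 46.7, 41.2 and 44.1 CPM in MO DN, against 7.23, 3.60 and 2.51 CPM in Wt DN, a difference of 3.14 ± 0.34 (SE, adjusted p = 0.000901), and fam160b1 had 45.8, 35.7 and 39.4 CPM in MO DN, against 4.85, 5.10 and 2.75 CPM in Wt DN, a difference of 3.01 ± 0.29 (SE, adjusted p = 0.000565). The methionine adenosyltransferase paralogue mat2al, the phosphatidylinositol 3-kinase subunit pik3r3a, the Ras-like gene rasl11b, the lysophospholipid acyltransferase lpcat2 and gtpbp1l rose by 2.44, 1.82, 2.06, 2.14 and 2.59. These 8 genes, of which all but lnx1 were picked after their values were seen, kept their calls in each fit without 1 library. Of the falls outside the lists, g3bp2, whose product builds stress granules, had 16.8, 27.7 and 24.7 CPM in MO DN, against 73.2, 78.0 and 78.9 CPM in Wt DN, a difference of -1.72 ± 0.23 (SE, adjusted p = 0.00374) that was lost without Wt DN 1 (adjusted p = 0.0557).

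Primitive red blood cell genes were the main group lower in MO DN, with 8 of the 22 falls. Primitive erythrocytes are the first blood cells of the embryo, made without an HE stage, and their RNA is dominated by embryonic globins and the enzymes of haem. Of 44 genes on the list 14 were in the table, all 14 were negative, and 8 fell (57.1%, against 12.5% of all listed genes called down). The median was -1.37, and the sum was 461 to 931 CPM in MO DN, against 1843 to 2262 CPM in Wt DN. In bulk RNA, fewer erythroid cells and less erythroid RNA per cell cannot be told apart. The study describes Citrine in primitive erythrocytes, so a gate without Citrine would leave out those that carry it.

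The embryonic globin gene hbbe3 had 205, 167 and 101 CPM in MO DN, against 531, 425 and 553 CPM in Wt DN, a difference of -1.71 ± 0.26 (SE, adjusted p = 0.00669). Its paralogue hbbe1.1 had 209, 189.6 and 105 CPM in MO DN, against 479, 441 and 654 CPM in Wt DN, a difference of -1.68 ± 0.27 (SE, adjusted p = 0.0108). For both genes MO DN 3 was the lowest library, and no MO library reached the lowest Wt library (groups did not overlap in 98.9% of all listed genes). The alpha globin gene hbae3 had 212, 179 and 131 CPM in MO DN, against 479, 440.3 and 500.1 CPM in Wt DN, a difference of -1.46 ± 0.21 (SE, adjusted p = 0.0049), and hbbe2 fell by 1.43 on the log2 scale. The globin gene hbbe1.3, listed as si:ch211-5k11.12, had 224, 145 and 66.0 CPM in MO DN, against 377, 354 and 338 CPM in Wt DN, and its difference of -1.46 missed the call (adjusted p = 0.0612). A further embryonic globin outside the list, hbae4 (listed as zgc:163057), missed it too with -1.07 (adjusted p = 0.534), so with it 8 of 15 listed erythroid genes fell (53.3%). Embryonic globin copies are near identical, so reads may have been divided or lost between them.

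The erythrocyte enzymes and membrane proteins went with the globins. The anion exchanger slc4a1a (band 3), the main membrane protein of red cells, had 6.26, 11.1 and 6.12 CPM in MO DN, against 19.9, 35.8 and 29.9 CPM in Wt DN, a difference of -1.75 ± 0.33 (SE, adjusted p = 0.0197). The erythroid carbonic anhydrase cahz had 13.2, 9.69 and 7.24 CPM in MO DN, against 38.1, 27.6 and 38.5 CPM in Wt DN, a difference of -1.71 ± 0.29 (SE, adjusted p = 0.0122). The groups did not overlap in either gene, as in 98.9% of all listed genes. The first enzyme of haem synthesis in red cells, alas2, and the third, hmbsb, fell by 1.31 and 1.13 on the log2 scale. The 5 other genes of the list that were not called (rhd, hebp2, blvrb, tspo and epb41b) had differences of -1.31 to -0.88. Without Wt DN 1 none of the 8 calls held in limma (adjusted p 0.0639 to 0.265, all 8 with an unadjusted p under 0.05), although all 8 stayed negative between -1.98 and -1.11. The calls of alas2, hmbsb and hbbe2 were lost whichever of the 6 libraries was left out, and that of slc4a1a without MO DN 1, Wt DN 1, Wt DN 2 or Wt DN 3 (adjusted p up to 0.0832).

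**Figure D4:**
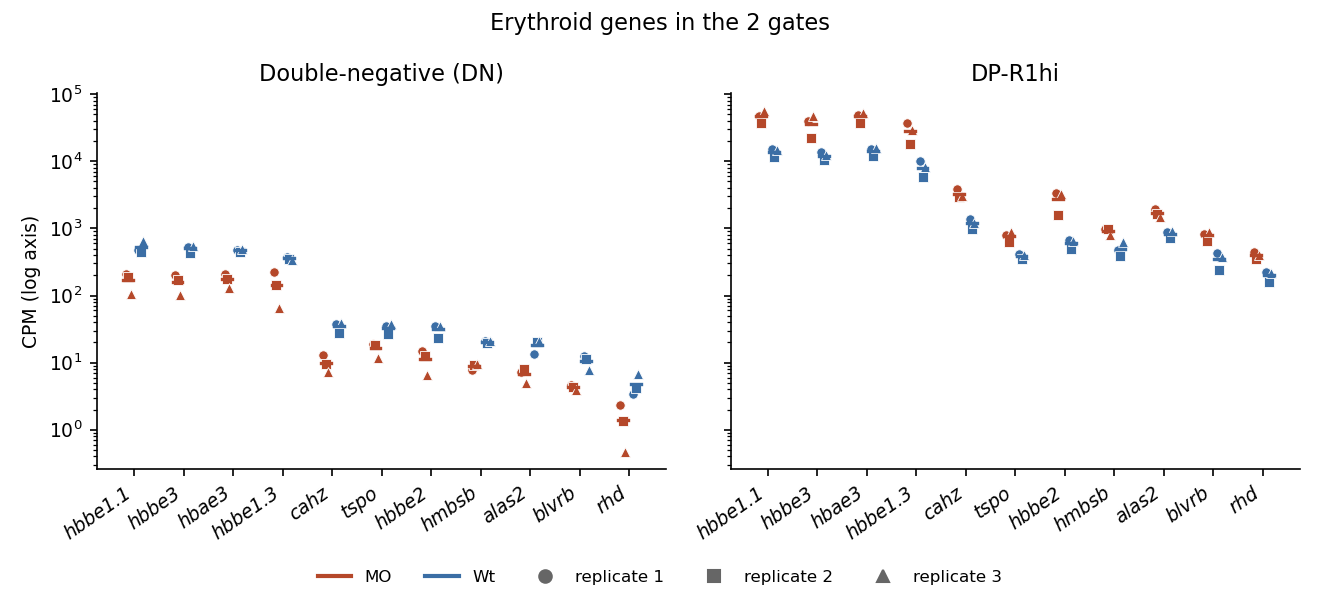
CPM (log axis) of the 11 erythroid list genes found for both gates, in DN cells (left) and DP-R1hi cells (right), MO left of Wt in each pair, with a line at the mean of 3 libraries. In DN cells MO lies below Wt (hbbe3 101 to 205 CPM in MO DN against 425 to 553 CPM in Wt DN), and in DP-R1hi cells MO lies above Wt. The DN groups did not overlap in 98.9% of all genes listed for DN cells.

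Myeloid genes were listed at very low levels. Of 36 on the list 7 were in the table, all negative with a median of -0.96, and 1 fell (14.3%, near the 12.5% of all listed genes called down). That gene was cybb, the catalytic subunit of the phagocyte oxidase, which had 1.08, 1.15 and 1.17 CPM in MO DN, against 3.54, 3.60 and 4.16 CPM in Wt DN, a difference of -1.16 ± 0.23 (SE, adjusted p = 0.0291), and was lost without MO DN 1, MO DN 2, MO DN 3, Wt DN 1 or Wt DN 2 (adjusted p up to 0.133). The macrophage gene mfap4 and the neutrophil peroxidase mpx missed the call with -1.19 and -0.90. Outside the list, and so left out of its share, zgc:173915 (mfap4.2 in RefSeq) was called down with -1.29. That call was lost whichever of the 6 libraries was left out (adjusted p up to 0.161 in limma). The 7 genes of the list summed to 17.0 to 22.3 CPM in MO DN, against 39.7 to 53.5 CPM in Wt DN, less than 0.01% of the library in either group. Of 22 inflammatory and interferon genes 5 were listed (median 0.86) and 0 were called by limma, against 59.7% of all listed genes. All 5 still had an unadjusted p under 0.05. The interferon-stimulated gene isg15 had 11.8, 5.18 and 3.74 CPM in MO DN, against 2.61, 0 and 0.0785 CPM in Wt DN. It is listed at 0 in Wt DN 2, and its difference of 2.20 missed the call. The cytokine genes il1b and tnfb had -0.88 and -0.86, and il1b was 1 of the 2 genes whose groups overlapped.

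Of 38 neural genes 8 were listed, with a median of -1.21, and 4 fell and 1 rose. Calls in either direction made up 62.5% of the 8, against 59.7% of all listed genes. By direction, 7 of the 8 were negative, and 4 of the 8 were called down, against 12.5% of all listed genes. The retinal ganglion cell determinant atoh7 had 5.45, 4.91 and 2.47 CPM in MO DN, against 20.1, 14.5 and 30.9 CPM in Wt DN, a difference of -2.10 ± 0.37 (SE, adjusted p = 0.0143). The Hairy-related gene hes2.2 had 55.8, 31.9 and 38.5 CPM in MO DN, against 138, 85.9 and 196 CPM in Wt DN, a difference of -1.67 ± 0.31 (SE, adjusted p = 0.0197). In each gene the highest MO library was below the lowest Wt library (groups did not overlap in 98.9% of all listed genes). The membrane proteolipid genes plp1a and gpm6bb, expressed in glia and neurons, fell by 1.19 and 1.14 on the log2 scale. The radial glial gene fabp7a, the adhesion gene cadm3 and the hypothalamic factor otpb missed the call, and for cadm3 and otpb MO DN 1 was the lowest of the MO libraries with 40.4 and 18.3 CPM. The acid-sensing channel asic1a had 4.31, 8.45 and 8.17 CPM in MO DN, against 0.231, 1.46 and 0.55 CPM in Wt DN and rose by 2.21 ± 0.35 (SE, adjusted p = 0.00872). None of these 5 calls held without Wt DN 1 (adjusted p 0.0934 to 0.199, all 5 with an unadjusted p under 0.05). The call of hes2.2 was also lost without Wt DN 3, that of plp1a without Wt DN 2, and that of gpm6bb without MO DN 1, MO DN 3 or Wt DN 2. After the rescaling the rise of asic1a was lost (1.65, adjusted p = 0.0971 in limma). The 4 falls, which the rescaling enlarges by construction, stayed called.

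Of 27 genes of epidermis, ionocytes and ciliated cells 4 were listed, with a median of 1.81, and 2 rose. That is 50% of the 4, near the 47.2% called up among all listed genes. Both genes are linked to motile cilia. The cilium kinase stk36 had 6.93, 4.60 and 7.52 CPM in MO DN, against 0.769, 1.17 and 1.02 CPM in Wt DN, a difference of 1.87 ± 0.27 (SE, adjusted p = 0.00593). The ciliogenic factor foxj1b had 11.8, 11.2 and 11.6 CPM in MO DN, against 1.92, 3.11 and 3.30 CPM in Wt DN, a difference of 1.75 ± 0.28 (SE, adjusted p = 0.0092). The groups did not overlap, as in 98.9% of all listed genes, and both calls were lost without Wt DN 1 (adjusted p = 0.0557). After the rescaling both were lost as well, with 1.25 for stk36 (adjusted p = 0.0536 in limma) and 0.996 for foxj1b (adjusted p = 0.226). The ionocyte factor foxi1 had 38.7, 22.3 and 21.7 CPM in MO DN, against 10.5, 3.79 and 0.236 CPM in Wt DN, with a wide spread in Wt, and its difference of 2.75 missed the call (adjusted p = 0.0552). The junction gene oclna missed it too (1.15).

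Of 23 genes of mesenchyme and matrix 5 were listed, with a median of 2.19, and 3 rose and 1 fell. Calls in either direction made up 80% of the 5, against 59.7% of all listed genes. The gelatinase mmp2, which digests basement membrane collagen, had 207, 208 and 240.3 CPM in MO DN, against 41.4, 44.8 and 49.95 CPM in Wt DN, a difference of 2.24 ± 0.17 (SE, adjusted p = 0.000127). The activin antagonist fsta (follistatin) had 69.1, 59.5 and 79.9 CPM in MO DN, against 10.5, 16.9 and 16.5 CPM in Wt DN, a difference of 2.19 ± 0.25 (SE, adjusted p = 0.00146). Both genes were tight within each group and kept their calls in each fit without 1 library. The growth factor igf2a had 72.3, 48.1 and 51.0 CPM in MO DN, against 3.999, 2.62 and 10.5 CPM in Wt DN, a difference of 3.27 ± 0.41 (SE, adjusted p = 0.00229), which was lost without Wt DN 1 (adjusted p = 0.0557). The TGF-beta signal transducer smad3a fell by 0.91 on the log2 scale, a call lost whichever of the 6 libraries was left out (adjusted p up to 0.111). The only muscle gene of 24 in the table was ryr1b, the calcium release channel of skeletal muscle, with 11.4, 9.07 and 6.91 CPM in MO DN, against 2.0, 3.79 and 3.14 CPM in Wt DN. Its difference of 1.35 ± 0.31 (SE, adjusted p = 0.0421) was lost whichever of the 6 libraries was left out (adjusted p up to 0.191), and after the rescaling (0.60, adjusted p = 1).

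Cell cycle genes were few and went both ways. Of 30 on the list 4 were in the table, with a median of -1.15, and 75% of the 4 were called, against 59.7% of all listed genes. Cyclin I (ccni) had 17.96, 51.9 and 39.8 CPM in MO DN, against 121, 164 and 82.5 CPM in Wt DN, a difference of -1.79 ± 0.38 (SE, adjusted p = 0.0315), and the mitotic checkpoint ligase chfr fell by 1.19 on the log2 scale. The cytokinesis exchange factor ect2 had 100.5, 81.2 and 79.4 CPM in MO DN, against 30.6, 44.6 and 23.6 CPM in Wt DN and rose by 1.41 ± 0.25 (SE, adjusted p = 0.0152). The phosphatase cdc25b, which opens mitosis, missed the call with -1.11. The call of ccni was lost without MO DN 1, Wt DN 1 or Wt DN 2 (adjusted p up to 0.226), that of chfr whichever of the 6 libraries was left out (adjusted p up to 0.158) and that of ect2 without MO DN 1 or Wt DN 1 (adjusted p up to 0.13). The rise of ect2 was also lost after the rescaling (0.52, adjusted p = 1 in limma). Of 28 genes of glycolysis and energy metabolism 5 were listed, all positive with a median of 0.96, and 2 rose. That is 40% of the 5, below the 47.2% called up among all listed genes. The glycerol phosphate dehydrogenase gpd1a had 32.6, 16.2 and 21.7 CPM in MO DN, against 8.23, 6.51 and 8.17 CPM in Wt DN, a difference of 1.46 ± 0.31 (SE, adjusted p = 0.032), and the aldolase aldocb had 218, 172 and 173 CPM in MO DN, against 97.9, 102 and 87.5 CPM in Wt DN, a difference of 0.96 ± 0.18 (SE, adjusted p = 0.0197). After the rescaling both rises were lost, with 0.61 for gpd1a and 0.056 for aldocb (adjusted p = 1 each in limma), and 1 of the 5 genes was negative. The call of gpd1a was lost without MO DN 1, MO DN 3, Wt DN 1, Wt DN 2 or Wt DN 3 (adjusted p up to 0.145) and that of aldocb without MO DN 1, Wt DN 1 or Wt DN 3 (adjusted p up to 0.122).

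The labelled tissue could be checked only in part. Of 24 endothelial genes only cldn5b, a tight junction gene, was listed, with 1.35, 0.398 and 2.15 CPM in MO DN, against 4.77, 2.62 and 4.87 CPM in Wt DN. It was low in every library and its difference of -1.19 was not called. Values of kdrl, the gene behind the mCherry reporter, were not analysed here.

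The same injection was measured in DP-R1hi cells, where 676 genes were listed. The 2 tables shared 63 genes, 35.8% of the DN list and 9.32% of the DP-R1hi list. Of these 42 had the same sign in both gates (32 positive and 10 negative) and 21 had opposite signs. The difference between the gates was tested as an interaction in limma over the 12 libraries and was called for 25 of the 63 genes (39.7%). All 21 genes of opposite sign were among them. Since each gene was listed for a change in both gates, a called difference between opposite changes was close to given.

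Of the 9 arrest and apoptosis genes listed for DN cells 6 were listed for DP-R1hi as well, all positive in both gates. The log2 difference was larger in DN cells for all 6. The interaction was called for 2 of them, mdm2 and cdkn1a, against 39.7% of the 63 shared genes called in either direction. For mdm2 the values were 306, 221 and 155 CPM in MO DP-R1hi, against 68.9, 69.5 and 59.8 CPM in Wt DP-R1hi. The interaction was 1.70 ± 0.39 (SE, adjusted p = 0.00118). The mdm2 means were 182 CPM in MO DN and 227 CPM in MO DP-R1hi, and 16.2 CPM in Wt DN and 66.1 CPM in Wt DP-R1hi. For cdkn1a and mat2al the interaction was also called, with 1.44 ± 0.54 (SE, adjusted p = 0.0404) and 1.17 ± 0.44 (SE, adjusted p = 0.0395), and these calls were lost in 9 and 8 of the 12 fits without 1 library (adjusted p up to 0.103 and 0.105). The interaction was not called for ccng1, with 0.73 ± 0.33 (SE, adjusted p = 0.0796), nor for lnx1, with 0.55 ± 0.69 (SE, adjusted p = 0.61). It also missed the call in limma for bbc3 (1.16, adjusted p = 0.169), sesn3 (0.997, adjusted p = 0.0522) and phlda3 (0.68, adjusted p = 0.442).

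Only 1 of the 32 ribosome biogenesis genes was shared, and it went the other way. That gene, mybbp1a, which codes for a nucleolar binding partner of Myb, had 154, 139 and 167 CPM in MO DN, against 70.4, 93.7 and 84.2 CPM in Wt DN, and 168, 163 and 162 CPM in MO DP-R1hi, against 226, 287 and 297 CPM in Wt DP-R1hi. The interaction was 1.59 ± 0.30 (SE, adjusted p = 0.000213). The adaptor gene traf4a had a difference of 0.86 in DN cells, which missed the call there, and -0.97 in DP-R1hi cells, with an interaction of 1.83 ± 0.33 (SE, adjusted p = 0.000107).

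The other 19 genes of opposite sign were negative in DN and positive in DP-R1hi. All 11 shared genes of the erythroid list were of this kind and were called, and so was hbae4, which makes 12 of the 19. The globin gene hbbe2 had 3358, 1606 and 3209 CPM in MO DP-R1hi, against 681, 493 and 654 CPM in Wt DP-R1hi, with an interaction of -3.53 ± 0.45 (SE, adjusted p = 3.91e-06), and cahz had 3888, 2908 and 3078 CPM in MO DP-R1hi, against 1381, 972 and 1203 CPM in Wt DP-R1hi, with an interaction of -3.19 ± 0.36 (SE, adjusted p = 9.56e-07). The DN level of the 11 list genes was 0.305% to 2.13% of the DP-R1hi level in MO, and 2.20% to 8.50% in Wt. The largest interactions were those of zgc:173915 (mfap4.2 in RefSeq), with -4.75 ± 0.37 (SE, adjusted p = 1.28e-08), and mfap4, with -4.57 ± 0.41 (SE, adjusted p = 6.2e-08). The macrophage gene mfap4 had 2.83, 2.04 and 2.33 CPM in MO DN, against 6.31, 5.15 and 9.27 CPM in Wt DN, and 459.6, 459 and 415 CPM in MO DP-R1hi, against 61.7, 27.9 and 42.1 CPM in Wt DP-R1hi. The other shared gene of the myeloid list, mpx, was negative in both gates, with -0.90 in DN and -1.42 in DP-R1hi, and its interaction was not called. The cytokine gene tnfb had 473, 264 and 378 CPM in MO DP-R1hi, against 124, 84.8 and 70.7 CPM in Wt DP-R1hi, with an interaction of -2.85 ± 0.42 (SE, adjusted p = 1.68e-05). Every one of the 19 genes had a higher mean in DP-R1hi than in DN cells, 30.1 to 386 times in MO and 3.68 to 64.7 times in Wt, and whether cells or RNA common to both gates took part in these differences was not tested.

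**Figure D5:**
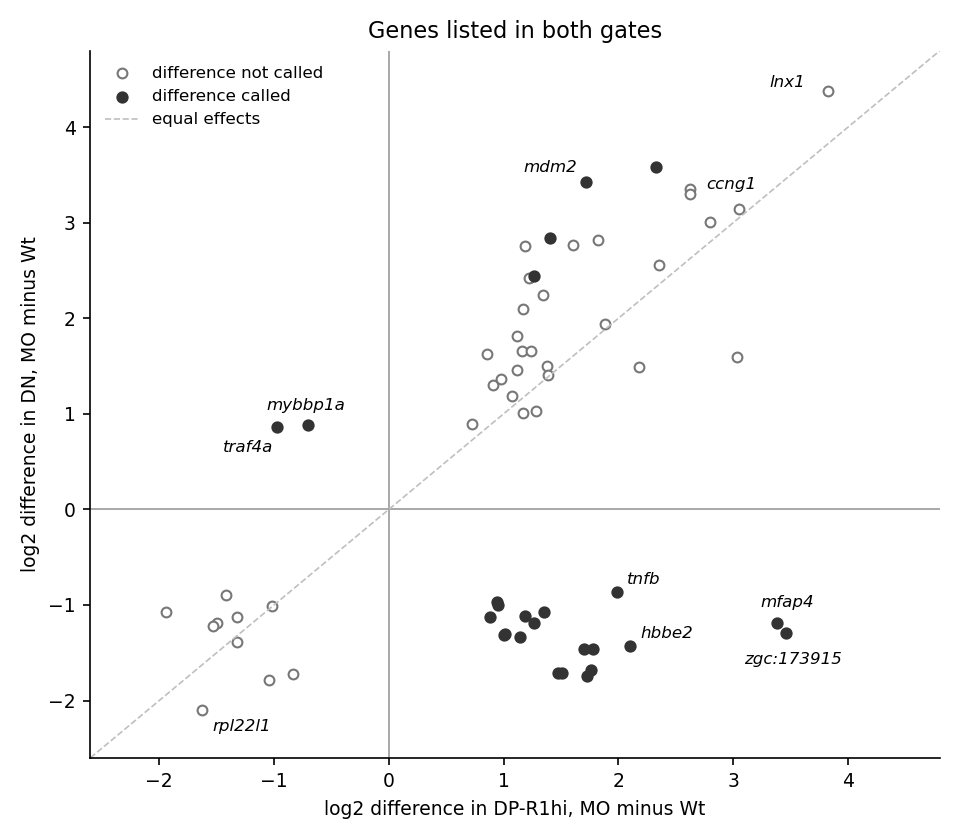
Log2 difference (MO minus Wt, on log2(CPM + 1)) in DN cells (y axis) against that in DP-R1hi cells (x axis) for the 63 genes listed for both gates, 3 libraries in each of the 4 groups. Filled points had a called difference between the gates (25 genes), 19 of them negative in DN and positive in DP-R1hi.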

How the data were processed

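Expression was measured by RNA-seq (SMARTer low-input libraries, RNA integrity number above 8.0) in sorted zebrafish cells. The authors trimmed reads with Trimmomatic 0.32, aligned them with STAR (genome named Zv10 in the methods), counted them per gene with featureCounts and deposited CPM values that edgeR scaled to effective library sizes. The tables hold only genes called by the authors at a false discovery rate under 0.05, without genes at 0 reads in at least 3 samples. Strand use is not given in the sources used here, so reads of overlapping or antisense partners cannot be told apart. Columns with the authors' fold change, mean log2 CPM, likelihood ratio, p-value, false discovery rate and off-target flags were not used. Symbols of 175 of the 176 genes matched RefSeq, and list genes carried under an older symbol were matched through it (1 gene, hbbe1.3).

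Columns were assigned by name, with 0 unmatched. CPM were tested as log2(CPM + 1) in limma 3.58.1 (R 4.3.3, two-sided, moderated with a mean trend), with no filter and no block. Benjamini-Hochberg adjustment in limma's results used 3064 tests, the distinct genes of all tables, which is a lower bound on the genes measured. Unlisted genes were treated as if nothing had changed in them. The difference between gates was tested as an interaction and adjusted over the 63 shared genes. The method was tested on simulated data in which genes were not selected for a difference. That test therefore does not give the error rate among the listed genes. The members, the 15 gene lists and the tests were chosen with earlier results of these data known. Named genes were the 5 largest rises and falls among called genes without overlap, the 4 largest changes in the arrest and apoptosis, ribosome biogenesis, erythroid and myeloid lists and the 2 largest in every other list (32 genes, of which 1 is not reported here and is left out of its list's values). Other genes are named as examples of their list or counts.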

Additional observations from a re-analysis of the deposited data

Results flagged for a closer look

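The 24 genes below stood out because their MO effect differed between DN and DP-R1hi cells in an interaction test (limma over 12 libraries, adjusted over 63 genes). Each value is the MO minus Wt difference in DN cells minus that in DP-R1hi cells, on log2(CPM + 1), so a positive value means a higher effect in DN cells. Every gene had been listed for a change in both gates. A called difference was therefore close to given where the signs were opposite.

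The effect was higher in DN cells for 5 of these genes, among them 2 of the arrest and apoptosis list. The interaction was 1.83 for traf4a, 1.70 for mdm2, 1.59 for mybbp1a, 1.44 for cdkn1a and 1.17 for mat2al. The adjusted p was 0.000107 to 0.0404. The calls of cdkn1a and mat2al were lost in 9 and 8 of the 12 fits without 1 library. In traf4a and mybbp1a the effects had opposite signs in the 2 gates.

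The effect was lower in DN cells for 19 genes, all negative there and positive in DP-R1hi cells. Among the 12 erythroid genes the interaction was -3.53 for hbbe2, -3.44 for hbbe1.1, -3.23 for hbbe3, -3.24 for hbbe1.3 (listed as si:ch211-5k11.12), -3.19 for cahz, -3.16 for hbae3, -2.43 for hbae4 (listed as zgc:163057), -2.31 for rhd, -2.31 for alas2, -2.30 for blvrb, -2.01 for hmbsb and -1.95 for tspo. Among the other 7 it was -4.75 for zgc:173915 (mfap4.2), -4.57 for mfap4, -3.46 for MGC173646, -2.85 for tnfb, -2.48 for nmt1b, -2.45 for cldn5b and -1.92 for rfesd. The adjusted p over the 19 genes was 1.28e-08 to 0.00177. All 19 had more CPM in DP-R1hi than in DN cells, and whether cells or RNA shared between the gates take part in the difference was not tested.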

How the results depend on the processing

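The count of 105 called genes (83 up, 22 down) ranged from 20 to 70 when 1 library was left out (20 to 59 up, 0 to 15 down). The 0 falls came without Wt DN 1 in limma, where 56 genes still had a negative difference at an unadjusted p under 0.05. Why the count was lowest without this library was not tested. With 176 tests in the adjustment all 176 genes were called (119 up, 57 down), and with 20000 tests 28 were (25 up, 3 down), fewer by construction. At 20000 tests 7 of the 9 arrest and apoptosis calls and 3 of the 25 ribosome biogenesis calls held. So did 2 of the 8 erythroid calls and 0 of the 5 neural calls. Rescaling by median ratios over the listed genes gave 65 calls (16 up, 49 down). This scaling assumes that the typical listed gene does not change, whereas the genes were listed for changing, and it turned 13 positive differences negative. It lowers MO against Wt, so falls grew by construction. Without the mean trend 82 genes were called, of the 32 ribosome biogenesis genes 9 in place of 25. Pseudocounts of 0.5 and 2 gave 102 and 119, and a minimum mean of 5 CPM gave 105. With the replicate number as a block (replicate block) 142 genes were called (103 up, 39 down) and none of the 31 named genes was lost. Of the 5 inflammatory and interferon genes 3 were called with the block and 0 without it. The correlation of deviations between same-numbered libraries was 0.22, 0.18 and -0.056. MO DN 1 and MO DN 2 went best with their own number, and MO DN 3 with Wt DN 2 (0.23). These values do not settle whether a number marks shared clutches, and the numbers were not taken as pairs. Of the 31 named genes none changed sign under any alternative run that tested it. At the minimum of 5 CPM only 28 of the 31 were tested, which left out cybb, asic1a and stk36. The myeloid list then had 0 calls. Between 4 and 24 of the 31 lost the call without 1 library, 19 with 20000 tests, 16 after rescaling, 3 without the trend (ccni, aldocb and mycb) and 1 at a pseudocount of 0.5 (ryr1b). The 25 differences between gates became 23 to 30 without 1 library, 29 with the replicate block and 24 to 27 under other settings, and 23 of the 25 held under every alternative run, the exceptions being cdkn1a and mat2al. The planned edgeR test on whole reads was not run, because the listed genes hold too few low values to recover reads to the standard required. Depth limits genes near the step of 0.0443 to 0.0785 CPM, such as isg15 and asic1a in Wt DN.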
